A study of Mus musculus with 32 samples.

Results

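Nr4a1, Egr1, Egr2, Egr3, Fos, Fosb, Jun, Junb, Ier2 and Klf10 are the immediate-early and Nr4a transcription factors described here, 10 of the 45706 genes in the deposited table of RNA-seq counts. They were chosen by name, with earlier results of these data known: the low level of Nr4a1 with miR-7a under LPS had already been seen, so that comparison, the difference of miR-7a effects and LPS against vehicle in miR-7a cells, which use the same LPS miR-7a libraries, are given as descriptions without a test. The LPS scramble libraries also stood in the choosing comparison and enter the tests of LPS in scramble cells and of the other mimics under LPS. BV-2 is an immortalised mouse microglial line (wild type, called glioblastoma in the labels), and a single line is a limited model of microglia in tissue. The cells received a scramble control or 1 of 3 microRNA mimics (miR-146a-5p, miR-29a-3p and miR-7a-5p), and LPS (lipopolysaccharide, a bacterial cell-wall component that activates Toll-like receptor 4) at 10 ng/ml or vehicle for 24 h, which gave 8 groups of 4 libraries. The vehicle groups are called vehicle scramble, vehicle miR-7a, vehicle miR-29a and vehicle miR-146a, and the LPS groups are named in the same way. The labels place the LPS treatment before the transfection and the study's methods for its phagocytosis assay place it after, so the order for these libraries is uncertain.

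Immediate-early genes are transcribed within minutes of a stimulus without new protein synthesis, mostly through serum response factor, ternary complex factors, CREB and NF-kappa-B, and their messenger RNAs are short-lived. In microglia and macrophages they rise early after Toll-like receptor stimulation and have usually returned towards baseline long before a day has passed. Nr4a1 (Nur77) is an orphan nuclear receptor that restrains inflammatory gene expression in myeloid cells. Egr1, Egr2 and Egr3 are zinc finger factors. Fos, Fosb, Jun and Junb are subunits of AP-1, a dimeric leucine zipper factor. Ier2 is a small nuclear protein of serum-stimulated cells, and Klf10 is a Krüppel-like zinc finger factor induced early by TGF-beta.

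The mature sequences of the 3 microRNAs, taken from RefSeq, are shown because a direct target carries a match to the seed, bases 2 to 8, which is in capitals.
mmu-miR-7a-5p: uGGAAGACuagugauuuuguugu
mmu-miR-29a-3p: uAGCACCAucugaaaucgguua
mmu-miR-146a-5p: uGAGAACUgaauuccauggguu
The 3 seeds differ from each other. In the annotated 3′ UTRs of GENCODE M21 (GRCm38), 2 of the 10 genes, Egr3 and Fos, held a 7-base match to the miR-7a seed, and the same 2 genes held 1 to the miR-29a seed. No match to the miR-146a seed was found in any of the 10. Of 21015 genes with a 3′ UTR, 11.9% held a miR-7a match, 13.1% a miR-29a match and 11.2% a miR-146a match. The 4 sites are shown with the match in capitals, on the plus strand, because they are the only such matches in the 10 genes.
Egr3 miR-7a site, chr14:70080609-70080629: ggagatgGTCTTCCatctgct
Egr3 miR-29a site, chr14:70080671-70080691: gctgcagTGGTGCTgctgccg
Fos miR-7a site, chr12:85476529-85476549: gaaacacGTCTTCCctcgaag
Fos miR-29a site, chr12:85476837-85476857: attaaccTGGTGCTggattgt
The Egr3 miR-7a site was followed by an A, the stronger form of a seed match, and the other 3 sites were not. Nr4a1 (chr15:101254269-101274795, plus strand, 543 bases of 3′ UTR) held no match to any of the 3 seeds, nor did Ier2, Junb, Jun or Klf10. A match is a description of the sequence and was not tested as a site of action.

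RefSeq promoter windows, 250 bases before to 50 after a transcription start, were searched for 6 of the genes. The 2 windows below are shown because Nr4a1 and Egr2 carry the main differences with miR-7a and with LPS. The letters GCGNGGGCG (a consensus of the EGR factors) and the SRF motif called CArG box were searched on both strands, and matches are in capitals.
Nr4a1, GRCm38.p6 chr15:101266596-101266895, plus strand: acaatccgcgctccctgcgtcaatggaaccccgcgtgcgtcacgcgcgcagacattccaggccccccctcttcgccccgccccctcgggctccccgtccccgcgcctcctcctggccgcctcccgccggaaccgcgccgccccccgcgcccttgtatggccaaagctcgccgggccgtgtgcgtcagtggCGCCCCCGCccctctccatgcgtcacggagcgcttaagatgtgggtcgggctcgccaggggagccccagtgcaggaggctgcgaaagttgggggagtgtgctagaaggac
Egr2, GRCm38.p6 chr10:67537619-67537918, plus strand: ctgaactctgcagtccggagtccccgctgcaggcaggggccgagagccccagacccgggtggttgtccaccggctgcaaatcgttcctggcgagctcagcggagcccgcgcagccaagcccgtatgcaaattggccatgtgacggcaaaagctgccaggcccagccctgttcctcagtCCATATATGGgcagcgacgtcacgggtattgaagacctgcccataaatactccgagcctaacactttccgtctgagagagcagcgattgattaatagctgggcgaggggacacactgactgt
RefSeq listed 5 windows for Egr2 and 4 of them held a CArG box. The windows that start at 67537619, 67537620 and 67537680 overlap and share the same box, so the 4 are not separate sites. The window shown has its box 72 bases before its start, and 1.63% of all 32851 promoter windows held one. The Nr4a1 window held 1 match to the EGR letters, 60 bases before its start, against 5.55% of all windows, and Fosb was the other gene with one. The letters TGACGTCA (the full CRE) were in none of the windows of the 6 genes and in 1.79% of all windows, and TGANTCA (AP-1) was likewise in none and in 7.81% of all. The motif called NF-kB was in the windows of Fosb, Fos and Nr4a1 and in 4.51% of all windows. Presence or absence of these letters says nothing on whether a factor was bound.

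Library totals ran from 1.21 to 20.7 M counts (M stands for 1000000) and were lowest in vehicle miR-7a (1.21 to 5.30 M). Genes for structural RNAs (ribosomal, small nuclear and nucleolar RNAs and the like) took 35.2% to 38.9% of counts in replicates 2 to 4 of vehicle miR-7a, 4.27% in its replicate 1 and 2.64% to 18.8% in the other groups. Levels are given as CPM, the count per 1000000 counts of the library total after TMM scaling. Of 12 microglial markers 11 had a median over 1 CPM, among them Cd68 and Csf1r, whereas none of 7 astrocyte and glioma markers and none of 3 neuronal markers did. No 2 libraries of a group agreed within sampling noise.

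**Figure D1:**
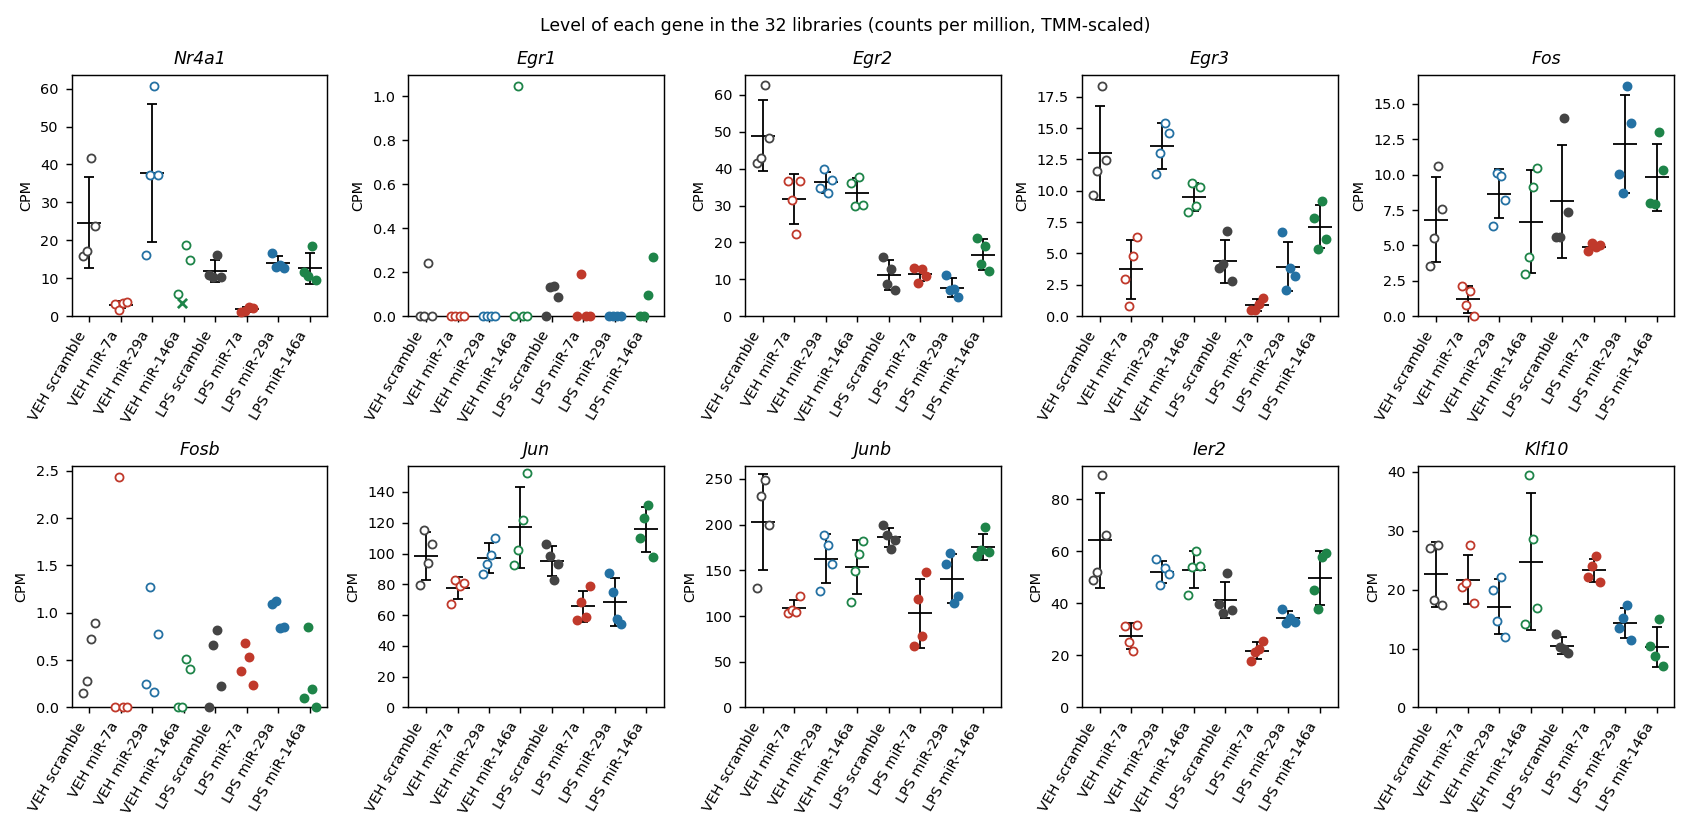
CPM of each of the 10 genes (vertical axes, linear, from 0) in the 32 libraries by group, with open points for vehicle, filled points for LPS and a bar for mean ± SD of 4 libraries (no bar for Egr1 and Fosb, which are near 0, nor for Nr4a1 in vehicle miR-146a, where the cross marks an uncertain reading). Nr4a1 lay between 1.02 and 3.80 in the 8 miR-7a libraries, and Egr2 was lower in the LPS groups than in the vehicle groups.

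Compared per kilobase of exon, median levels over the 32 libraries were highest for Junb (70.1 CPM per kb), then Jun (29.1), Ier2 (27.2), Egr2 (6.37), Klf10 (4.16), Nr4a1 (3.46), Fos (3.18) and Egr3 (1.48). Fosb was at 0.0634 CPM per kb. Egr1 had no count in 24 of the 32 libraries and at most 7 counts in any, so it passed the filter on low counts in no comparison. Fosb reached at most 18 counts and passed in 1 comparison only. Junb lies opposite Prdx2 and Jun opposite Junos, and the strand setting of the authors' counting is not given in the sources used here, so reads of these neighbours cannot be told apart.

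Nr4a1 had its highest mean in vehicle miR-29a (37.8 ± 18.2 CPM, SD, n = 4) and vehicle scramble (24.7 ± 11.97), then LPS miR-29a (13.9 ± 1.81), LPS miR-146a (12.6 ± 4.10), LPS scramble (11.9 ± 2.86), vehicle miR-7a (3.05 ± 0.987) and LPS miR-7a (1.77 ± 0.637). The steps from vehicle scramble to LPS miR-29a, from LPS scramble to vehicle miR-7a and from vehicle miR-7a to LPS miR-7a exceeded the pooled SD of the neighbours, and at the step from LPS scramble (lowest library 10.4 CPM) to vehicle miR-7a (highest 3.80 CPM) the ranges did not overlap, while vehicle miR-29a and vehicle scramble did not differ beyond their spread, nor did the 3 LPS groups without miR-7a. In vehicle miR-146a the libraries read 5.92, 18.8 and 14.7 CPM, and replicate 2, deposited as 23459, read 3.51, 35.1 or 351 CPM with 3, 2 or 1 decimals lost (probability of the first 0.61). That gene was therefore left out of the comparisons that use this group.

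With the miR-7a mimic in vehicle cells, which used libraries that did not enter the choice of the genes, Nr4a1 read 3.18, 1.62, 3.60 and 3.80 CPM, against 15.9, 17.1, 41.8 and 23.8 CPM in vehicle scramble. Egr3 read 3.00, 0.810, 4.797 and 6.33 CPM with miR-7a and 9.65, 11.6, 18.4 and 12.5 CPM without it. Fos read 2.12, 0.810, 1.80 and 0 CPM with miR-7a and 3.58, 5.51, 10.6 and 7.57 CPM without it. In each of these 3 genes every miR-7a library was below every scramble library, and the same held for Egr2, Junb and Ier2, which made 6 of the 8 genes tested where 4.33% of all genes tested had every miR-7a library below every scramble library. Junb lay at 104 to 122 CPM against 130 to 249 CPM, Ier2 at 21.6 to 31.6 CPM against 48.9 to 89.2 CPM, and Egr2 at 22.2 to 36.7 CPM against 41.5 to 62.6 CPM. This was not particular to miR-7a for Egr2. It also lay wholly below vehicle scramble in vehicle miR-29a (33.4 to 40.0 CPM) and vehicle miR-146a (29.9 to 37.7 CPM). In those comparisons 2.79% and 7.53% of all genes were likewise lower with no overlap. The ranges of Jun and Klf10 overlapped between the groups. In bulk RNA fewer expressing cells and less RNA per cell cannot be told apart.

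None of the 8 genes tested passed an adjusted p of 0.05 in this vehicle comparison by limma-voom with Benjamini-Hochberg adjustment over 11011 genes, where 0.145% of all genes were called. Their log2 fold changes had a median of -1.03, against -0.01 over all genes tested. Nr4a1 came closest (log2 fold change -2.82, SE 0.54, adjusted p = 0.0669), followed by Ier2 (-1.18, SE 0.25, adjusted p = 0.0872), Egr3 (-1.96, SE 0.46, adjusted p = 0.119), Junb (-0.88, SE 0.22, adjusted p = 0.148) and Fos (-2.08, SE 0.62, adjusted p = 0.222). Egr2 was at -0.62, Jun at -0.38 and Klf10 at -0.03. At an unadjusted p under 0.05 there were 6 of the 8, against 12.5% of all genes. The edgeR quasi-likelihood test called 2 (Nr4a1, adjusted p = 0.00481, and Ier2, adjusted p = 0.0462), where it called 0.400% of all genes, and DESeq2 called 5 (those 2 with Egr3, Junb and Fos), where it called 2.11% of all genes. With the replicate number as a block limma-voom called the same 5, Nr4a1 at an adjusted p of 0.000432, where 3.17% of all genes were called. The pairing is uncertain there: r between same-numbered libraries was 0.247, -0.089, 0.112 and 0.158. Leaving out replicate 1 of vehicle scramble gave 3 calls, of Nr4a1, Junb and Ier2. No share of all genes is given for that fit, so nothing is read from its count.

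Counts behind these values were small in vehicle miR-7a: 18, 2, 6 and 3 for Nr4a1, 17, 1, 8 and 5 for Egr3, and 12, 1, 3 and 0 for Fos. Pooled over the 4 libraries Nr4a1 had 29 counts against 551, a ratio of 0.1304 per unit of depth with a 95% interval of 0.0865 to 0.189 that covers counting error only. Replicates 2 to 4 of this group also had the high share of structural RNA given above. Replicate 1 alone, the deepest library of the group with 4.27% structural RNA, had log2 fold changes of -2.82 for Nr4a1, -2.04 for Egr3, -1.53 for Fos, -1.0003 for Ier2 and -0.95 for Junb. These are values of 1 library and carry no spread of their own. With structural RNA genes left out of the fit Nr4a1 passed (log2 fold change -2.81, adjusted p = 0.0311).

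**Figure D2:**
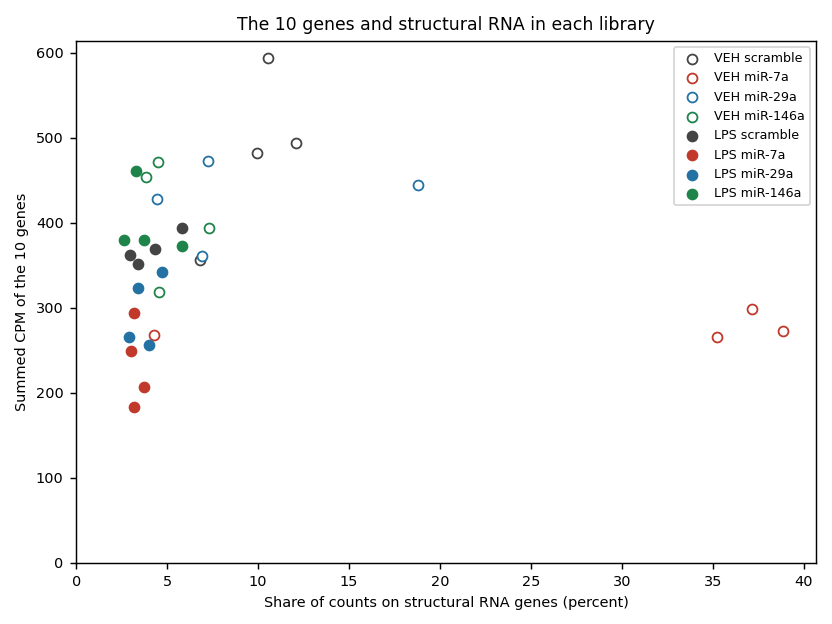
Summed CPM of the 10 genes (vertical axis) against the share of counts on structural RNA genes in percent (horizontal axis), 1 point per library, open for vehicle and filled for LPS. Vehicle miR-7a replicate 1 lies at 4.27% on the horizontal axis and at a summed level like that of the 3 libraries of its group with 35.2% to 38.9%.

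Under LPS the same mimic gave the comparison with which the genes were chosen, so its values are listed without p. Nr4a1 read 1.02, 1.46, 2.34 and 2.25 CPM with miR-7a and 10.8, 10.4, 16.2 and 10.4 CPM with scramble, a log2 fold change of -2.73 (SE 0.30). Egr3 read 0.512, 0.485, 0.982 and 1.48 CPM with miR-7a and 3.83, 4.14, 6.82 and 2.77 CPM with scramble (log2 fold change -2.27, SE 0.43). Both genes had no overlap between the groups. Klf10 went the other way, at 22.1, 24.1, 25.7 and 21.3 CPM with miR-7a and 12.5, 10.3, 9.96 and 9.25 CPM with scramble (log2 fold change 1.20, SE 0.14). Junb had a log2 fold change of -0.92 (SE 0.21) and Ier2 one of -0.91 (SE 0.16), with every miR-7a library below every scramble library in both. Fos (-0.68) and Jun (-0.53) did not overlap between groups either, whereas Egr2, at 9.02 to 13.2 CPM against 7.11 to 16.0 CPM, did (log2 fold change 0.21, SE 0.24). Ranges that did not overlap were thus seen in 7 of the 8 genes and in 11.5% of all genes tested.

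Of these 8 genes 5 (Nr4a1, Klf10, Ier2, Egr3 and Junb) were past the threshold used elsewhere, where 3.00% of 12916 genes were called, and nothing is read from that count because the genes were chosen on this comparison. It fell to 3, 2 and 2 without replicate 1, 2 and 3 of LPS miR-7a, Junb was past it in 1 of the 8 fits that leave out 1 library, and with the replicate number as a block Jun also passed, which made 6 (9.70% of all genes). Of the heat shock and stress genes Hmox1 was also lower (-1.28), the 1 of 12 tested that passed (5 with the block), and the summed level of the 15 was lower in LPS miR-7a (6421 to 6790 CPM) than in LPS scramble (7916 to 9569 CPM), and their part in the result was not tested. Of 11 microglial markers tested 0 passed by limma-voom and 2 with the block, where 9.70% of all genes did.

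The difference between the miR-7a effect under LPS and that under vehicle contains the choosing comparison, so it is described without p. It was 0.09 on the log2 scale for Nr4a1 (SE 0.62), 0.25 for Ier2 (SE 0.30), -0.05 for Junb (SE 0.32), -0.31 for Egr3 (SE 0.67) and -0.16 for Jun (SE 0.22), each smaller than its SE. It exceeded its SE for Klf10 (1.23, SE 0.26), Egr2 (0.82, SE 0.34) and Fos (1.30, SE 0.71). The Klf10 means were 22.6 ± 5.49 CPM in vehicle scramble, 21.7 ± 4.17 in vehicle miR-7a, 10.5 ± 1.41 in LPS scramble and 23.3 ± 1.97 in LPS miR-7a, so that LPS scramble was the low group. None of the 8 genes was past the threshold used elsewhere by limma-voom, where 0.0584% of 11995 genes were, and nothing is read from that count.

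**Figure D3:**
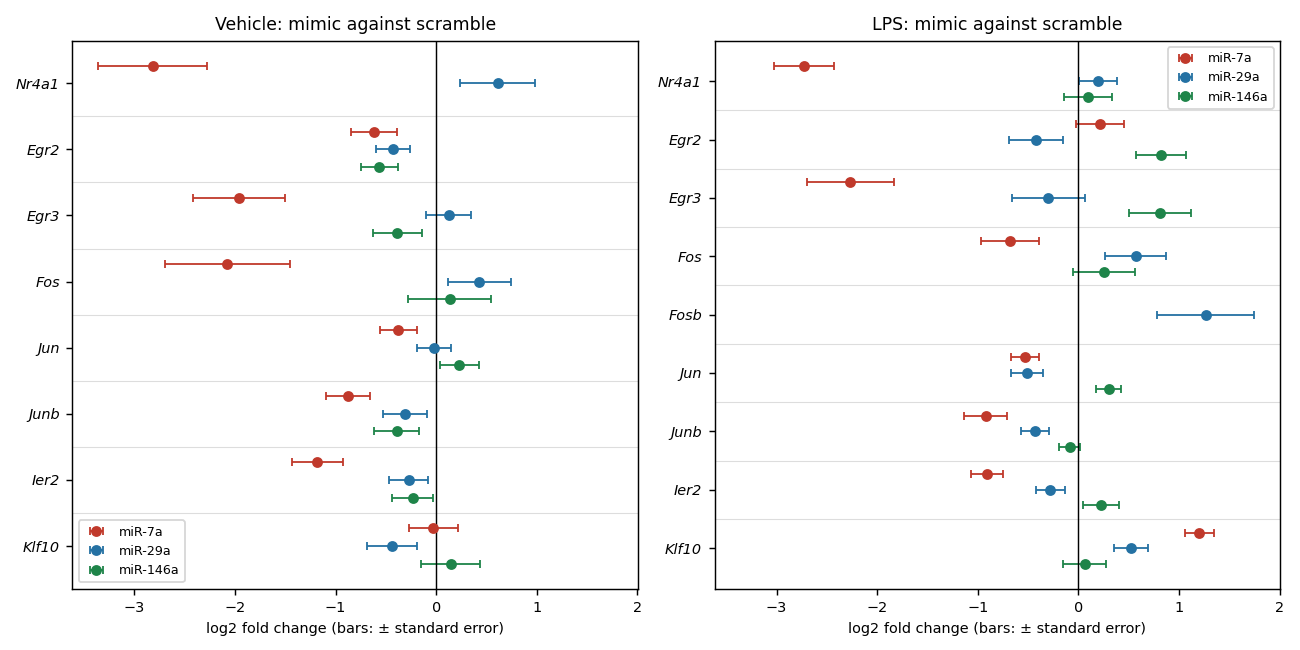
Log2 fold change of each mimic against scramble (horizontal axis, bars ± SE) for the genes that could be tested, under vehicle in the left panel and under LPS in the right. miR-7a values of Nr4a1 lie at -2.82 and -2.73 in the 2 panels, those of Egr3 at -1.96 and -2.27, while Klf10 lies at -0.03 under vehicle and at 1.20 under LPS.

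LPS against vehicle in scramble cells asked where the genes stood after a day of stimulation. Egr2 read 16.0, 8.81, 12.8 and 7.11 CPM in LPS scramble and 41.5, 43.0, 62.6 and 48.4 CPM in vehicle scramble, with no overlap. It fell by 2.32 on the log2 scale (SE 0.23, adjusted p = 8.29e-05). Egr3 fell by 1.61 (SE 0.30, adjusted p = 0.00387) and Klf10 by 1.14 (SE 0.20, adjusted p = 0.00237), again with no overlap and lower in 4 of 4 pairs of the same replicate number. Of all genes tested 10.2% were likewise lower with no overlap, against these 3 of 8. Nr4a1 fell by 0.95 (SE 0.28, adjusted p = 0.0375), with ranges that overlapped (10.4 to 16.2 against 15.9 to 41.8 CPM) though it was lower in 4 of 4 pairs. These 4 of the 8 genes tested were called by limma-voom, all lower, where 18.1% of 12174 genes were called and 8.48% were called lower, and the median log2 fold change of the 8 was -0.79 against 0.01 over all genes.

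Ier2 missed the threshold in that comparison (-0.62, SE 0.20, adjusted p = 0.0537). The replicate numbers paired the libraries here, and with the number as a block Ier2 was called too (-0.66, SE 0.14, adjusted p = 0.00949), which made 5 of 8 where 25.4% of all genes were called with the block. Ier2 was also called by edgeR (adjusted p = 0.0467), by DESeq2 (adjusted p = 0.0192) and without replicate 1 of vehicle scramble or replicate 3 of LPS scramble. The AP-1 genes did not pass: Fos was at 0.32 (SE 0.38), Jun at -0.06 (SE 0.16) and Junb at -0.10 (SE 0.20), and their ranges overlapped. Nr4a1 was the least stable of the calls and was lost when any of 5 libraries was left out, replicates 3 and 4 of vehicle scramble and replicates 1, 2 and 4 of LPS scramble (adjusted p = 0.0731 to 0.119). Microglial markers moved with LPS as well: of 11 tested, 5 were lower and 1 higher, and their summed level was 2944 to 3698 CPM in LPS scramble against 3832 to 5507 CPM in vehicle scramble. The share of structural RNA did not overlap either, at 2.95% to 5.81% in LPS scramble and 6.79% to 12.1% in vehicle scramble. Their part in the result was not tested.

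The same LPS contrast was fitted within each mimic. In miR-29a cells 5 of 8 genes were called, all lower, where 26.5% of 12141 genes were called and 13.8% were called lower. They were Egr2 (-2.34, SE 0.20, adjusted p = 1.603e-05), Egr3 (-2.07, SE 0.29, adjusted p = 0.000423), Ier2 (-0.65, SE 0.13, adjusted p = 0.00375), Nr4a1 (-1.40, SE 0.31, adjusted p = 0.00619) and Jun (-0.58, SE 0.17, adjusted p = 0.0216). Jun alone of these was lost when 1 library was left out, which happened for replicates 3 and 4 of either group. Nr4a1 and Jun were lower in 3 of 4 pairs, with overlap. Egr2, Egr3 and Ier2 did not overlap between LPS miR-29a and vehicle miR-29a, where Egr2 read 11.3, 6.97, 7.46 and 5.12 CPM against 34.7, 40.0, 33.4 and 37.0 CPM. Of all genes 12.2% were likewise lower with no overlap. Microglial markers moved with LPS here too: of 11 tested, 6 were lower, and their summed level was 2358 to 3064 CPM in LPS miR-29a against 3814 to 4239 CPM in vehicle miR-29a. Their part in the result was not tested.

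In miR-146a cells 2 of 7 genes were called, Egr2 (-0.98, SE 0.20, adjusted p = 0.0114) and Klf10 (-1.27, SE 0.32, adjusted p = 0.0357), both lower, where 4.52% of 11971 genes were called and 1.60% were called lower. Egr2 read 21.1, 14.1, 19.1 and 12.2 CPM in LPS miR-146a and 36.1, 29.9, 37.7 and 30.2 CPM in vehicle miR-146a, with no overlap. Klf10 did overlap, at 7.05 to 15.0 CPM against 14.2 to 39.4 CPM. Neither was called without replicate 3 of vehicle miR-146a, and Klf10 was not called without replicate 2 of that group or replicate 1, 2 or 4 of LPS miR-146a. Nr4a1, left out because of its uncertain value, had a log2 fold change of -0.22 (adjusted p = 0.8003) with that library left out. Of 11 microglial markers tested 3 were lower with LPS. Their summed level was 3448 to 4104 CPM in LPS miR-146a against 4018 to 5198 CPM in vehicle miR-146a. The part of these markers in the result was not tested.

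LPS against vehicle in miR-7a cells uses the LPS miR-7a libraries of the choosing comparison and is described without p. Egr2 was lower under LPS (log2 fold change -1.52, SE 0.22), at 13.2, 9.02, 12.8 and 10.8 CPM against 36.6, 31.6, 22.2 and 36.7 CPM. Fos was higher (1.69, SE 0.45), at 4.61, 5.14, 4.87 and 5.05 CPM against 2.12, 0.810, 1.80 and 0 CPM, on the counts of 12 or fewer given above for vehicle miR-7a. Neither gene overlapped between the groups, and 14% of all genes tested did not. With replicate 1 as the only vehicle miR-7a library the log2 fold changes were 1.16 for Fos and -1.71 for Egr2, values of 1 library with no spread of their own. Egr3 had too few counts to be tested in these cells, Nr4a1 was at -0.86 (SE 0.45), and Klf10 was at 0.07 (SE 0.20). Egr2 and Fos were the 2 of 7 genes past the threshold used elsewhere, as 6.61% of 11720 genes were, Fos fell short of it when any 1 of the 8 libraries was left out, and nothing is read from that count. The share of structural RNA did not overlap between the groups, at 2.99% to 3.71% in LPS miR-7a and 4.27% to 38.9% in vehicle miR-7a, and its part in these differences was not tested. Of 11 microglial markers tested 2 were lower and 1 higher past the same threshold. Their median log2 fold change was -0.53, against 0.03 over all genes, and their part was not tested either.

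**Figure D4:**
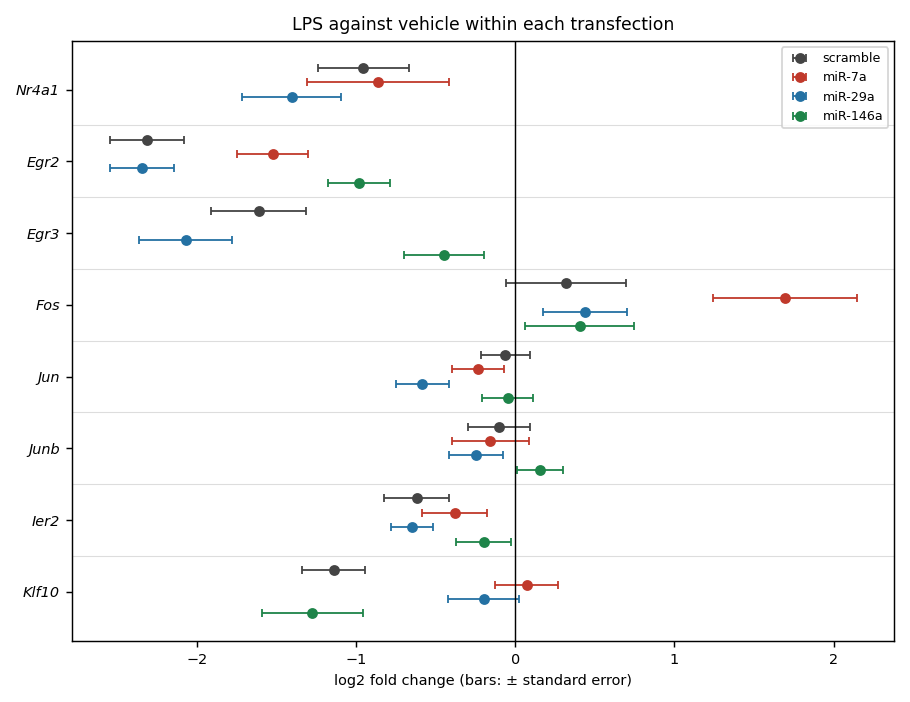
Log2 fold change of LPS against vehicle (horizontal axis, bars ± SE) within scramble, miR-7a, miR-29a and miR-146a cells for the genes tested. All 4 Egr2 values lie below 0, from -2.34 to -0.98, whereas Klf10 lies near -1.14 and -1.27 in scramble and miR-146a cells and at -0.20 and 0.07 in miR-29a and miR-7a cells.

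Egr2 was lower under LPS in each of the 4 transfections, called by limma-voom in the 3 that were tested (scramble, miR-29a and miR-146a). Its group means were 48.9 ± 9.62, 31.8 ± 6.81, 36.3 ± 2.86 and 33.5 ± 4.03 CPM in vehicle scramble, miR-7a, miR-29a and miR-146a cells, and 11.2 ± 4.00, 11.5 ± 1.94, 7.71 ± 2.59 and 16.6 ± 4.18 CPM in the LPS groups in the same order. All 16 vehicle libraries were above all 16 LPS libraries, as for 0.378% of the 10859 genes tested in all 4 transfections. These values depend on the decimal marks, which were restored in 9 of the Egr2 values. With marks by a fixed rule Egr2 stayed lower but was not called by limma-voom in those 3 transfections (adjusted p = 0.257, 0.238 and 0.0616, in the order above). With values as deposited it was lower and not called either.

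The miR-29a mimic called none of the genes against scramble by limma-voom in either condition. Fosb passed the filter on low counts in the LPS comparison alone, through the miR-29a group where it was higher, so it is left out of the counts and described by its values. Under LPS 0 of the other 8 genes were called (4.97% of 13175 genes called), and 3 were at an unadjusted p under 0.05 (21.5% of all genes). Here edgeR and DESeq2 called 0, against 4.63% and 7.86% of all genes. Jun was at -0.51 (SE 0.16, adjusted p = 0.0901), Junb at -0.43 (SE 0.14, adjusted p = 0.1045) and Klf10 at 0.52 (SE 0.17, adjusted p = 0.0969). The replicate numbers paired these libraries, and with the block Jun (-0.52, adjusted p = 0.00712) and Junb (-0.44, adjusted p = 0.0130) were called, 2 of 8 where 10.5% of all genes were called with the block. Jun read 87.1, 74.9, 57.4 and 54.1 CPM in LPS miR-29a and 106, 98.1, 83.1 and 93.4 CPM in LPS scramble, lower in 4 of 4 pairs with a small overlap, and Junb did not overlap between the groups. Microglial markers moved with this mimic under LPS: of 11 tested, 2 were lower (6 called with the block), their median log2 fold change was -0.36 against -0.01 over all genes, and their summed level was 2358 to 3064 CPM against 2944 to 3698 CPM in LPS scramble. Of 10 heat shock and stress genes tested limma-voom called 0, with 3 at an unadjusted p under 0.05 and 5 called with the block, and the summed level of the list was 6915 to 7935 CPM against 7916 to 9569 CPM. The part of either list in these differences was not tested. Fosb read 1.10, 1.13, 0.841 and 0.853 CPM with miR-29a and 0, 0.657, 0.818 and 0.224 CPM with scramble, on 7 to 18 and 0 to 12 counts. Under vehicle 0 of 8 genes were called (0.0173% of 11551 genes called), and 1 was at an unadjusted p under 0.05 (Egr2, -0.43), where 10.5% of all genes were. In that condition edgeR and DESeq2 called 0, against 0.0346% and 0.944% of all genes. The replicate numbers paired these libraries as well, and the block also called 0 of the 8 (1.05% of all genes). Egr3 (0.12, SE 0.23) and Fos (0.43, SE 0.31), which hold the miR-29a seed matches shown above, were not lower with this mimic in vehicle cells, and under LPS they were at -0.30 (SE 0.37) and 0.57 (SE 0.30).

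For the miR-146a mimic 0 of 8 genes were called under LPS (2.40% of 12491 genes called), and 3 were at an unadjusted p under 0.05 (17.6% of all genes). Here edgeR and DESeq2 called 0, against 1.55% and 5.22% of all genes. Egr2 was at 0.82 (SE 0.25, adjusted p = 0.115) and Egr3 at 0.81 (SE 0.31, adjusted p = 0.205), both higher in 4 of 4 pairs with overlapping ranges. These libraries were also paired by number, and Egr2 was called with the block (0.60, SE 0.15, adjusted p = 0.0287), 1 of 8 where 11% of all genes were called. The heat shock and stress genes were also at a lower summed level here, 5570 to 6972 CPM against 7916 to 9569 CPM in LPS scramble with no overlap, their median log2 fold change was -0.35, and of 12 tested limma-voom called 0, with 5 at an unadjusted p under 0.05 and 5 called with the block. Their part in these differences was not tested. Under vehicle 0 of 7 genes were called (2.30% of 11658 genes called), and 1 was at an unadjusted p under 0.05 (Egr2, -0.57, adjusted p = 0.0894) where 25.4% of all genes were. In that condition edgeR and DESeq2 called 0, against 2.95% and 10.6% of all genes. By limma-voom Egr2 was called without replicate 1 of vehicle scramble (adjusted p = 0.0471). Without its uncertain library Nr4a1 was at -0.69 (adjusted p = 0.329) in vehicle cells. The 3 mimic comparisons of a condition share the same 4 scramble libraries, so their values are not independent of each other.

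Differences between conditions were not called for these mimics. For miR-29a 0 of 8 genes were called (0.0247% of 12152 genes called), and 2 were at an unadjusted p under 0.05 (Klf10, 0.96, and Jun, -0.49) where 6.58% of all genes were. Here edgeR and DESeq2 called 0, against 0.0247% and 0.181% of all genes. For miR-146a 0 of 7 genes were called (0.00% of 12158 genes called), and edgeR and DESeq2 called 0 (0.00% and 0.132% of all genes). At an unadjusted p under 0.05 there were 2, against 11.3% of all genes. The 2 were Egr2, whose miR-146a effect was 1.35 higher under LPS than under vehicle on the log2 scale (SE 0.31, adjusted p = 0.333), and Egr3 (1.17 higher, SE 0.39, adjusted p = 0.347). Egr2 was called without replicate 1 of vehicle scramble (adjusted p = 0.0474).

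A list of 37 other immediate-early genes was counted in the same fits. In scramble cells under LPS 2 of 31 tested rose and 4 fell, a share near the 18.1% of all genes called: Myc (log2 fold change 2.12, adjusted p = 0.00109), a growth-promoting transcription factor, and Tiparp (0.76, adjusted p = 0.0384) rose, while Dusp2 (-1.19, adjusted p = 0.00147), a phosphatase of MAP kinases, Ier5l (-0.87, adjusted p = 0.0247), Rhob (-0.62, adjusted p = 0.0429) and Mafk fell. In miR-29a cells 2 rose and 6 fell of 31, again near the share of all genes (26.5%), with Dusp2 (-1.37, adjusted p = 0.000173), Rhob (-0.79), Ier5l (-1.22) and Nr4a3 (-1.65, adjusted p = 0.0103), the paralogue of Nr4a1, among the lower ones and Myc (1.51, adjusted p = 0.00217) among the higher. Sgk1 (1.08) and Rhob (-0.74) were the 2 of 30 past the threshold in miR-7a cells, where 6.61% of all genes were, and Myc alone of 31 was called in miR-146a cells (1.95, adjusted p = 0.0138), where 4.52% were. Rhob (1.13, adjusted p = 0.00396) and Klf2 (1.32, adjusted p = 0.0143) were the 2 of 31 called with miR-146a under LPS (2.40% of all genes), both higher, and Myc, lower, was the 1 of 32 called with miR-29a under LPS (-1.01, adjusted p = 0.0360), where 4.97% of all genes were called and the block called 4 of the list and 10.5% of all genes. With miR-7a under LPS, Sgk1 (0.78) and Btg2 (-1.06) were the 2 of 30 past the threshold (3.00% of all genes), and 10 passed with the block (9.70%). Under vehicle 0 of 29, 31 and 31 genes of the list were called by limma-voom with miR-7a, miR-29a and miR-146a, with 4, 1 and 5 at an unadjusted p under 0.05, against 12.5%, 10.5% and 25.4% of all genes; calls by the other tools were not counted for the lists.

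Of 20 upstream regulators and corepressors, Nab2 (-0.79, adjusted p = 0.00850), a corepressor that binds EGR factors and is itself one of their target genes, fell in scramble cells under LPS, and its paralogue Nab1 (0.61, adjusted p = 0.0419) rose, 2 of 20 where 18.1% of all genes were called. In miR-29a cells under LPS 4 of 20 fell and none rose, where 13.8% of all genes were called lower: Nab2 (-1.71, adjusted p = 0.000132), Srf (-0.65, adjusted p = 0.0228), which encodes serum response factor, and its coactivators Mkl1 (-0.85, adjusted p = 0.00715) and Mkl2 (-0.43, adjusted p = 0.0225). With the block 10 of the 20 were called there, where 37.6% of all genes were. With the miR-29a mimic under LPS Nab2 was lower than with scramble (-0.90, adjusted p = 0.0298), the 1 of 20 called, and the block called 3 (10.5% of all genes). Of the 20, 0 were called by limma-voom with miR-7a or miR-146a in either condition (3 to 6 at an unadjusted p under 0.05, against 12.5% to 25.4% of all genes), and the block called 3 with miR-146a under LPS (11% of all genes). With miR-29a under vehicle limma-voom called 0 of the 20 (0.0173% of all genes), 3 were at an unadjusted p under 0.05 (10.5%) and the block called 1 (1.05%).

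Across the 32 libraries the 8 detected genes did not vary as 1 block. On log2 CPM, with an offset of 0.5, Nr4a1 tracked Egr3 (Pearson r = 0.813) and Ier2 (r = 0.801) and Egr3 tracked Ier2 (r = 0.883), whereas Klf10 had r between -0.334 and 0.435 with the other 7. The 8 genes closest to the mean standardised profile of the detected members, among 12027 genes, were Zyx (r = 0.930), Cyp27a1 (r = 0.903), Actg1 (r = 0.899), Dbp (r = 0.881), Mknk2 (r = 0.872), Macrod1 (r = 0.864), Rin2 (r = 0.849) and Fcgrt (r = 0.848). For Nr4a1 alone they were Actg1 (r = 0.825), Fgf11 (r = 0.821), Zfp36 (r = 0.820), Tfr2 (r = 0.817) and Nr1h2 (r = 0.816). These are descriptions over 32 libraries that share groups, depth and the scramble controls. Every value that involves Nr4a1, the mean profile included, takes its uncertain reading in vehicle miR-146a replicate 2 as 3.51 CPM. How far another reading would move these values was not tested.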

How the data were processed

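RNA of 32 BV-2 cultures (4 independent experiments per group, by the study's account) was extracted with TRIzol, and total RNA libraries were made with the CORALL kit after ribosomal depletion. The authors deposited estimated counts per gene, made with an nf-core workflow on GRCm38; limma and edgeR are named in the submitters' processing notes. The deposited values had lost their decimal marks (a count with 3 decimals reads far too high). They were restored with a level model per gene and group: 28.6% of 590874 values above 0 received lost decimals, 94.0% of these 3, and 1.26% stayed uncertain (probability under 0.9) and kept their gene out of comparisons using them. Values under 10 were read as they stand. Of the 320 values of the 10 genes, 18 were restored and 1 was uncertain. Depth was 1.21 to 20.7 M counts per library, and 3 counts correspond to 0.134 to 3.80 CPM.

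Each comparison was fitted with limma-voom (limma 3.58.1) on its own groups, or on 4 groups for a difference of effects, after filterByExpr and TMM (edgeR 4.0.16), two-sided, with Benjamini-Hochberg adjustment over all genes and calls at an adjusted p under 0.05. Alternatives included DESeq2 1.42.0 and a replicate block. Same-numbered libraries deviated together (every r above 0.1) in 6 of the 10 pairwise comparisons: the 3 mimics under LPS, miR-29a under vehicle, and LPS in scramble and in miR-29a cells. There the blocked value is given beside a member whose call it changed and a list whose count it moved by over 1.5 times. For miR-7a under vehicle, where 1 pair had r = -0.089, the blocked count of members is given as well. Members, lists and tests were chosen with earlier results of these data known. Named genes were the 10 members, up to 5 called genes of the immediate-early list per comparison, and the 8 (for Nr4a1, 5) with the most similar profile; further called list genes were named after their values were seen, as was the EGR motif. The steps were tested on simulated data.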

Additional observations from a re-analysis of the deposited data

Results flagged for a closer look

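In LPS scramble, Nr4a1 in replicate 3 stood apart from the other libraries of its group at 16.2 CPM, against 10.4 to 10.8 CPM. It was the 1 value of this kind among 65 groups of 4 libraries, where chance flags about 1 in 20 groups.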

How the results depend on the processing

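The count of the 10 genes called depended most on the decimal marks. With values exactly as deposited it was 0 for LPS against vehicle in scramble, miR-7a, miR-29a and miR-146a cells (4, 2, 5 and 2 as reported) and 1 for miR-7a under LPS (5 as reported). With decimal marks by a fixed rule these became 2, 1, 1, 0 and 2, and Nr4a1 in miR-29a cells under LPS reversed to 1.22 on the log2 scale (adjusted p = 0.05695). The cause was not tested. For miR-7a under vehicle (0 as reported) the count was 1 with a minimum probability of 0.99, with no filter on low counts or with structural RNA genes left out, 2 by edgeR or in 1 fit over all 32 libraries, 5 by DESeq2 and 5 with the replicate block. In that comparison 1 pair of same-numbered libraries had r = -0.089, so it was not among those where replicate numbers paired the libraries. The same holds for LPS against vehicle in miR-7a and miR-146a cells and miR-146a under vehicle, where the block changed no count. For the difference of miR-7a effects, which contains the comparison the genes were chosen on, the block and DESeq2 gave 1 (Klf10), from which nothing is read; the block gave 2 for miR-29a under LPS and 1 for miR-146a under LPS, as the fit over all 32 libraries did; it changed no other count by over 1.5 times. With replicate 1 alone for vehicle miR-7a, an alternative added after seeing the data as was leaving out structural RNA, LPS in miR-7a cells gave 1; the lone library was assumed to vary as the other group did. Leaving out 1 library gave 3 to 5 calls for LPS in scramble cells, 2 to 6 for miR-7a under LPS, 0 to 3 for miR-7a under vehicle, 0 to 1 for miR-146a under vehicle, 1 to 2, 4 to 5 and 0 to 2 for LPS in miR-7a, miR-29a and miR-146a cells, 0 to 1 for the difference of miR-146a effects, and 0 throughout for the others. Shares of all genes called are not given for most of these alternatives, so nothing about the members in particular is read from the counts. Over single genes, 1067 values under other settings kept their side of the threshold, 33 passed newly, 32 were lost and 1 reversed. Small counts in vehicle miR-7a limit Fos, Egr3 and Nr4a1 there, and Egr1 was not measurable at this depth.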
